A study of Homo sapiens with 24 samples.

Results

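Sarcomere and muscle genes are described here as a set of 39 genes, listed by name and looked up in the 2 count tables of the study. The set was chosen with earlier results of these data known. Its counts of calls, set beside shares over all genes, are thus descriptions and not a test of the set. The set was kept in 4 classes: 17 genes used mainly by skeletal muscle, 12 mainly by the heart, 5 mainly by smooth muscle and 5 shared by striated muscles. The organoid table held all 39 genes among its 61544 identifiers, with MYLPF under the newer symbol MYL11. The NPC table held 21 of them among its 10221 symbols, made up of 7 skeletal, 5 cardiac, 5 smooth and 4 shared striated genes. The other 18 were not analysed here in NPCs.

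RNA was sequenced from neural progenitor cells (NPCs) and day 30 cerebral organoids, both grown from the established human embryonic stem cell line H9. Lentivirus at a multiplicity of infection of 20 carried either of 2 short hairpin RNAs against KDM2A, named sh1 and sh4, or a scrambled hairpin, named NC, and all groups were selected with puromycin at 1 µg/ml. KDM2A is a histone demethylase that acts on H3K36me2, and the study asked about its part in MAPK signalling during neural development. Each NPC group had 5 libraries (sh1, sh4, NC) and each organoid group had 3. The labels name no muscle differentiation step. They also leave unsaid whether replicates were cultured apart, and p-values thus rest on a spread between libraries that may be technical.

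A striated muscle sarcomere slides thin filaments, built of actin with tropomyosin and the troponin complex, along thick filaments of myosin heavy and light chains. Titin and nebulin act as molecular rulers, alpha-actinin anchors thin filaments at the Z-disc, and desmin links Z-discs to the rest of the cell. Smooth muscle has no troponin and uses its own actin, myosin and the actin-binding proteins calponin and transgelin. Many of these genes are not restricted to muscle: pericytes, fibroblasts and myofibroblasts use smooth muscle actin, transgelin and tropomyosins, and nervous tissue uses several tropomyosins and ryanodine receptors.

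Library totals were 15.9 to 18.85 M counts in organoids and 12.73 to 20.19 M counts of listed genes in NPCs. A count of 0 allows up to 3 counts, which is 0.160 to 0.195 CPM in organoids and 0.154 to 0.218 CPM in NPCs, where CPM are counts over the scaled library total in M. These limits cover counting error only. KDM2A RNA in NPCs was 89.1 to 98.1 CPM with sh1 and 91.3 to 102 CPM with sh4, against 163 to 202 CPM with NC. In organoids KDM2A was not lower, at 103 to 117 CPM in libraries labelled sh1 and 95.5 to 105 CPM in libraries labelled sh4, against 96.8 to 105 CPM in NC libraries, and directions in organoids are therefore given for the labels.

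In the organoids 30 of the 39 genes passed the filter on low counts. With the sh1 label 6 of the 30 were called higher and 7 lower, where a call means an adjusted p under 0.05 and a log2 fold change of at least 1 in size. Changes below are log2 fold changes with their SE. Of all 19704 genes tested, 12.1% were called higher and 7.92% lower in that comparison. With the sh4 label 13 members were called higher and 6 lower, against 20.0% and 15.5% of all genes. The median log2 fold change of the 30 was 0.04 with the sh1 label and 0.68 with the sh4 label, beside 0.02 and -0.01 over all genes tested. Called higher with both labels were DES, IGFN1, MYL9, TNNI1, TNNT2 and TNNT3, and called lower with both were ACTA1, ACTC1, MYL7 and RYR1, against 10.2% and 6.18% of all genes. MYL4 and SLN were called lower with the sh1 label and higher with the sh4 label. The comparisons share their NC libraries.

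**Figure D1:**
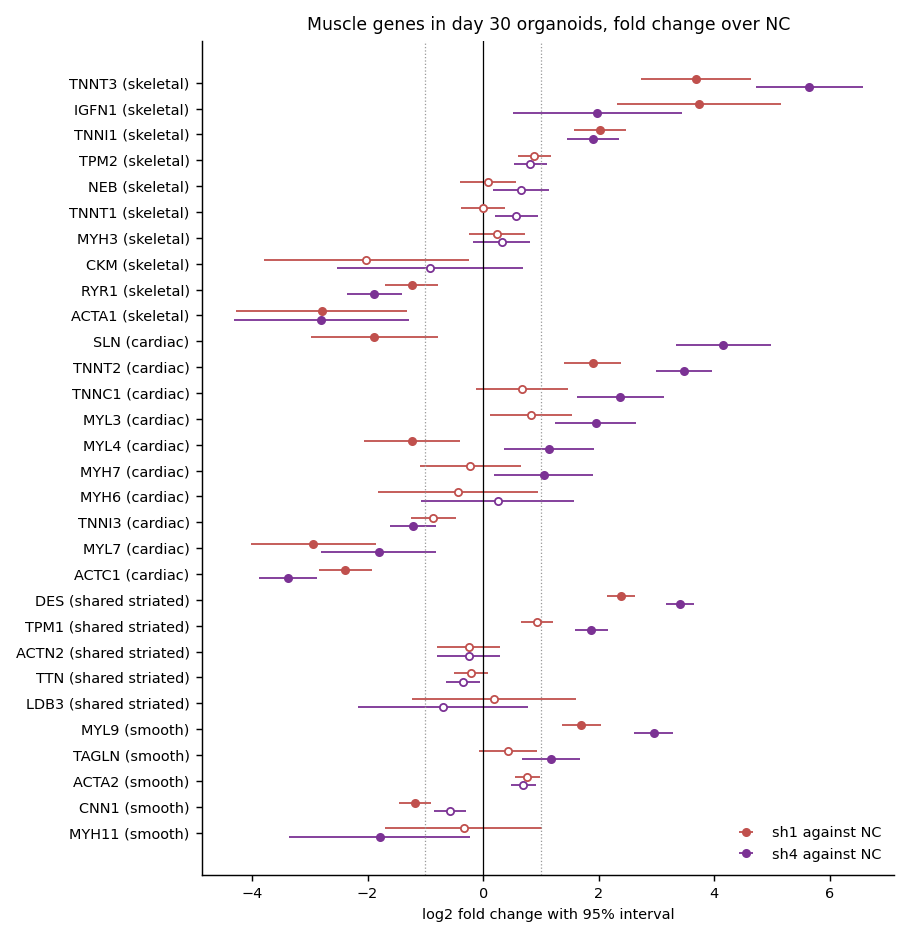
Log2 fold change over NC (x axis) of the 30 muscle genes tested in day 30 organoids (y axis, with class), for the sh1 label (red) and the sh4 label (purple). Bars are 95% intervals, filled points are called, and dotted lines mark a log2 fold change of 1 in size. Called genes of the skeletal, cardiac and smooth classes lie on both sides of 0, and the called shared striated genes, DES and TPM1, lie above it.

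Markers of other cell types also changed in the same organoid libraries. Over all organoid genes tested, 12.1% were called higher and 7.92% lower with the sh1 label, and 20.0% and 15.5% with the sh4 label. Of 12 mesenchyme and pericyte markers, 11 were called higher with each label. Their summed level was 22297 to 25246 CPM with the sh1 label and 41858 to 51398 CPM with the sh4 label, against 3228 to 4690 CPM in NC libraries. Of 9 neural progenitor markers, 6 were called lower with the sh1 label and 7 with the sh4 label, and their summed level was 2655 to 2779 CPM and 1222 to 1669 CPM, against 3042 to 3503 CPM in NC. Of 8 neuron markers, 2 and 7 were called lower. In NPCs, 10 mesenchyme and pericyte markers had 1 call higher and 1 lower with sh1, and 6 and 1 with sh4. All NPC genes had shares of 6.31% and 12.1% with sh1, and 6.55% and 11.6% with sh4. These markers summed to 5660 to 6921 CPM and 6693 to 7609 CPM, against 7254 to 7950 CPM with NC. Of 2 mesoderm markers tested in NPCs, 1 was called higher and 1 lower with each hairpin. The 3 listed summed to 59.5 to 87.7 CPM and 52.2 to 109 CPM, against 9.10 to 15.1 CPM with NC. The part of these shifts in the results on muscle genes was not tested, and in bulk RNA fewer cells of a type and less RNA per cell cannot be told apart.

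Among the skeletal genes, the defining factors of the myogenic lineage were at or near 0 in organoids. MYF5, a determination factor, had 0 counts in all 6 libraries labelled sh1 or sh4 and 0 to 2 counts in NC libraries. MYOD1, the second determination factor, had 1 count in 1 sh1 library, none in sh4 libraries and 0 to 6 counts in NC libraries. MYOG, which drives terminal differentiation, had 2, 5 and 7 counts with the sh1 label, 1, 1 and 0 with the sh4 label and 0, 1 and 2 in NC. None of the 3 factors reached 0.4 CPM in any library, and none was tested.

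The skeletal thin filament changed in a mixed way. TNNT3, the fast skeletal troponin T that ties troponin to tropomyosin, had 4.11, 3.13 and 5.10 CPM with the sh1 label and 18.4, 11.4 and 18.5 CPM with the sh4 label, against 0.110, 0.533 and 0.293 CPM in NC. All 3 groups were apart from each other, with NC at 2 to 10 counts. Its log2 fold change was 3.68 ± 0.43 (SE) with the sh1 label (adjusted p 0.000126) and 5.64 ± 0.41 with the sh4 label (adjusted p 2.65e-06), and without NC replicate 2 these were 4.32 and 6.28. TNNI1, the slow skeletal inhibitory troponin, had 67.3, 83.9 and 58.5 CPM with the sh1 label and 59.2, 59.5 and 74.7 CPM with the sh4 label, against 15.1, 22.6 and 13.9 CPM in NC. Both labels lay above every NC library and overlapped each other, with log2 fold changes of 2.02 ± 0.20 (adjusted p 4.98e-05) and 1.90 ± 0.20 (adjusted p 2.27e-05).

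ACTA1, the skeletal alpha-actin, was on the opposite side. It had 0.329, 0.0549 and 0.164 CPM with the sh1 label and 0, 0.235 and 0.300 CPM with the sh4 label, against 1.49, 1.39 and 1.06 CPM in NC. These are 1 to 6 counts, 0 to 5 counts and 18 to 27 counts per library. Both labels lay below every NC library and overlapped each other, and the labelled libraries sat near the limit of detection. The log2 fold change was -2.80 ± 0.66 with the sh1 label (adjusted p 0.00685), or -3.49 without sh1 replicate 1, and -2.80 ± 0.68 with the sh4 label (adjusted p 0.00432). TNNT1, the slow skeletal troponin T, ranged over 19.7 to 28.1 CPM with the sh1 label, 28.1 to 43.6 CPM with the sh4 label and 22.9 to 24.6 CPM in NC, and was not called. TPM2, a tropomyosin also used outside muscle, was 72.5 to 94.1 CPM and 67.8 to 94.7 CPM with the 2 labels, against 44.6 to 45.7 CPM in NC. Its log2 fold changes of 0.89 ± 0.13 (adjusted p 0.000454) and 0.82 ± 0.13 (adjusted p 0.000307) stayed under the fold threshold.

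RYR1, the calcium release channel of the skeletal sarcoplasmic reticulum, fell with both labels. It had 9.65, 8.79 and 11.9 CPM with the sh1 label and 4.55, 7.29 and 7.55 CPM with the sh4 label, against 25.0, 27.1 and 19.6 CPM in NC. The log2 fold change was -1.24 ± 0.20 with the sh1 label (adjusted p 0.000967) and -1.88 ± 0.21 with the sh4 label (adjusted p 3.6e-05). IGFN1, an immunoglobulin and fibronectin domain protein of skeletal muscle, had 7.68, 11.9 and 3.40 CPM with the sh1 label and 1.62, 3.41 and 1.74 CPM with the sh4 label, against 0.331, 1.12 and 0.235 CPM in NC. Every labelled library was above every NC library. IGFN1 rose by 3.73 ± 0.63 with the sh1 label (adjusted p 0.00111) and by 1.98 ± 0.65 with the sh4 label (adjusted p 0.0216) on the log2 scale, or 4.72 and 2.96 without NC replicate 2. The sh4 call was lost without NC replicate 1 (1.70, adjusted p 0.0754), without NC replicate 3 (1.62, adjusted p 0.0734) and without sh4 replicate 2 (1.55, adjusted p 0.0777).

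The other skeletal genes were low or uncalled. MYH3, the embryonic myosin heavy chain, was 2.36 to 3.24 CPM with the sh1 label, 2.52 to 3.18 CPM with the sh4 label and 2.17 to 2.51 CPM in NC. NEB, which encodes nebulin, was 3.30 to 3.73 CPM, 3.88 to 5.87 CPM and 2.83 to 3.69 CPM in the same order of labels. CKM, the muscle creatine kinase, had 2 to 5 counts with the sh1 label, 0 to 11 with the sh4 label and 11 to 18 in NC, with a log2 fold change of -2.02 ± 0.79 (adjusted p 0.0605) for the sh1 label. CKM passed the test for the sh1 label without sh4 replicate 1 (-2.02, adjusted p 0.00784) and with the sh1 and NC groups alone (-2.03, adjusted p 0.00767). Below the filter were MYH8 (perinatal heavy chain, 0 to 8 counts), MYL1 (fast alkali light chain, 0 to 8), MYLPF (fast regulatory light chain, 0 to 4) and TNNC2 (fast troponin C, 0 to 21).

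**Figure D2:**
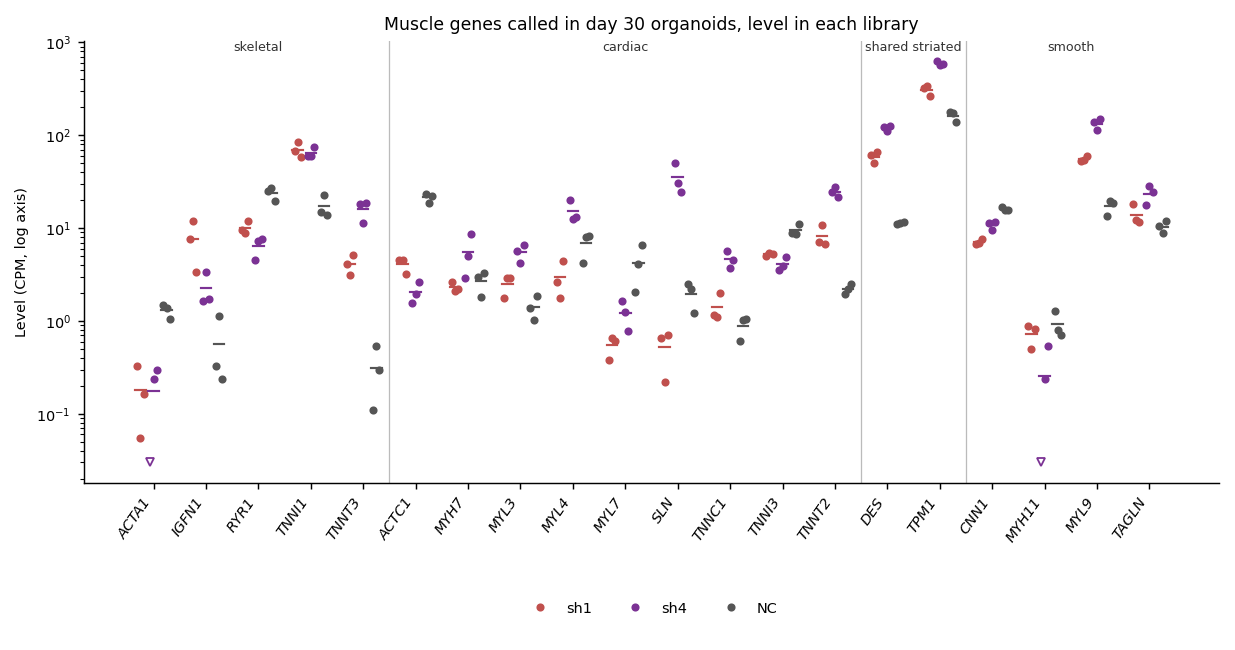
Level in CPM (log axis) of the 20 muscle genes called in at least 1 organoid comparison, by class. Each point is a library, with sh1 label (red), sh4 label (purple) and NC (grey) from left to right, bars are group means, and open triangles mark libraries at 0. TNNT3, DES, MYL9 and TNNT2 separate all 3 groups with the sh4 label on top, while SLN is highest with the sh4 label and lowest with the sh1 label.

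Of the 10 cardiac genes tested, 1 was called higher and 4 lower with the sh1 label, against 12.1% and 7.92% of all genes, and 6 higher and 3 lower with the sh4 label, against 20.0% and 15.5%. TNNT2, the cardiac troponin T, had 7.13, 10.9 and 6.69 CPM with the sh1 label and 24.6, 27.4 and 21.9 CPM with the sh4 label, against 1.93, 2.19 and 2.52 CPM in NC. The 3 groups did not overlap, and TNNT2 rose by 1.89 ± 0.22 with the sh1 label (adjusted p 0.000123) and by 3.47 ± 0.22 with the sh4 label (adjusted p 1.22e-06) on the log2 scale. TNNC1, the slow and cardiac calcium-binding troponin, had 1.15, 1.10 and 2.03 CPM with the sh1 label and 5.71, 3.76 and 4.50 CPM with the sh4 label, against 0.607, 1.01 and 1.06 CPM in NC. Only the sh4 change was called, at 2.38 ± 0.34 (adjusted p 0.000166), while the sh1 change was 0.67 ± 0.35 (adjusted p 0.144). TNNI3, the cardiac inhibitory troponin, had 5.05, 5.44 and 5.26 CPM with the sh1 label and 3.51, 3.94 and 4.92 CPM with the sh4 label, against 8.83, 8.69 and 11.1 CPM in NC. Its log2 fold change was -0.86 ± 0.18 with the sh1 label (adjusted p 0.00309, under the fold threshold) and -1.21 ± 0.18 with the sh4 label (adjusted p 0.000212).

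ACTC1, the cardiac alpha-actin, showed the lowest fold change of any member with the sh4 label. It had 4.50, 4.56 and 3.23 CPM with the sh1 label and 1.56, 1.94 and 2.64 CPM with the sh4 label, against 23.2, 18.5 and 22.5 CPM in NC. The groups did not overlap, with log2 fold changes of -2.38 ± 0.21 (adjusted p 2.26e-05) and -3.38 ± 0.22 (adjusted p 1.52e-06). In 3 of the 9 libraries the ACTC1 count was fractional and summed to a whole number, within 0.01, with that of its neighbour GJD2-DT.

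The light chains did not move together. MYL7, the atrial regulatory light chain, had 0.384, 0.659 and 0.603 CPM with the sh1 label and 1.62, 1.24 and 0.779 CPM with the sh4 label, against 2.04, 4.16 and 6.57 CPM in NC. NC libraries were the highest and also the most spread, and MYL7 fell, at -2.94 ± 0.48 (adjusted p 0.000927) and at -1.81 ± 0.45 (adjusted p 0.00489) on the log2 scale. MYL4, the atrial and embryonic essential light chain, had 2.63, 1.76 and 4.44 CPM with the sh1 label and 20.1, 12.5 and 13.2 CPM with the sh4 label, against 4.25, 8.11 and 8.33 CPM in NC. The sh4 libraries were above all others, but sh1 replicate 3 lay above NC replicate 1. The log2 fold change was -1.23 ± 0.37 with the sh1 label (adjusted p 0.022) and 1.14 ± 0.35 with the sh4 label (adjusted p 0.0144). The sh1 call of MYL4 was lost without NC replicate 2, NC replicate 3, sh1 replicate 1 or sh1 replicate 2 (-0.96 to -1.15, adjusted p 0.0704 to 0.0746). The sh4 call was lost without NC replicate 1 (0.89), without sh4 replicate 1 (0.90) and with scaling by library size alone (0.85).

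MYL3, the ventricular and slow skeletal essential light chain, had 1.75, 2.91 and 2.90 CPM with the sh1 label and 5.65, 4.18 and 6.65 CPM with the sh4 label, against 1.38, 1.01 and 1.88 CPM in NC. Only the sh4 change was called, at 1.95 ± 0.31 (adjusted p 0.000369). The sh1 change was 0.83 ± 0.32 (adjusted p 0.0574) and passed without NC replicate 3 (1.07, adjusted p 0.0401) or without sh1 replicate 1 (1.03, adjusted p 0.0345). MYL2, the ventricular regulatory light chain, had 0 counts in all 9 libraries.

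Among the cardiac heavy chains, MYH7, the slow and ventricular form, had 2.63, 2.09 and 2.19 CPM with the sh1 label and 2.92, 5.06 and 8.69 CPM with the sh4 label, against 2.98, 1.81 and 3.28 CPM in NC. The sh4 and NC libraries overlapped. The sh4 change of MYH7 was 1.05 ± 0.38 (adjusted p 0.0325), and it was lost without sh4 replicate 3 (0.58, adjusted p 0.159), NC replicate 2 (0.82, adjusted p 0.113) or NC replicate 1 (1.12, adjusted p 0.061), with library size alone (0.80) and with the 2 groups alone (adjusted p 0.0624). MYH6, the atrial form, had 3 to 19 counts with the sh1 label, 14 to 16 with the sh4 label and 8 to 23 in NC, and was not called. MYH6 and MYH7 counts were fractional in 6 of 9 organoid libraries and their sum was whole in each, so reads of the 2 neighbouring genes, 4461 bases apart, were divided between them and their separate values are uncertain.

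SLN, sarcolipin, a small inhibitor of the sarcoplasmic reticulum calcium pump, showed the widest gap between the labels. It had 0.658, 0.220 and 0.712 CPM with the sh1 label and 50.8, 30.9 and 24.5 CPM with the sh4 label, against 2.48, 2.19 and 1.23 CPM in NC. None of the 3 groups overlapped. The log2 fold change was -1.88 ± 0.49 with the sh1 label (adjusted p 0.0111) and 4.16 ± 0.37 with the sh4 label (adjusted p 7.82e-06), and -6.04 ± 0.43 for the sh1 label against the sh4 label (adjusted p 4.65e-05). CASQ2, the cardiac calcium store protein, had 1 or 2 counts with the sh1 label, 1 to 10 with the sh4 label and 0 to 3 in NC, below the filter.

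The shared striated genes were split between 2 that rose and 3 that were not called. DES, desmin, had 61.0, 50.0 and 65.8 CPM with the sh1 label and 123, 111 and 126 CPM with the sh4 label, against 11.0, 11.3 and 11.6 CPM in NC. The groups were far apart relative to their spread, and DES rose by 2.38 ± 0.11 (adjusted p 1.31e-06) and by 3.41 ± 0.11 (adjusted p 1.06e-07) on the log2 scale. Desmin is also an intermediate filament of pericytes and smooth muscle. TPM1, a tropomyosin with muscle and non-muscle isoforms that gene counts cannot separate, had 324, 344 and 262 CPM with the sh1 label and 634, 573 and 580 CPM with the sh4 label, against 177, 174 and 137 CPM in NC. All sh1 libraries were above NC, at 0.93 ± 0.12 (adjusted p 0.000262, under the fold threshold), or 1.02 without sh1 replicate 3, and the sh4 change of TPM1 was called at 1.87 ± 0.12 (adjusted p 1.63e-06). TPM1 and the antisense gene TPM1-AS had fractional counts that summed to whole numbers in all 9 libraries, so reads were divided between them. The strand of those reads is not known.

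ACTN2, the sarcomeric alpha-actinin, was 3.67 to 5.27 CPM with the sh1 label, 3.78 to 5.32 CPM with the sh4 label and 4.40 to 6.90 CPM in NC. Its log2 fold change was -0.25 for both labels, with 95% intervals of -0.79 to 0.29 each. TTN, titin, was 12.9 to 16.8 CPM and 12.9 to 14.4 CPM with the 2 labels, against 15.4 to 18.9 CPM in NC. LDB3, a Z-disc protein, had 4.44, 3.63 and 4.55 CPM with the sh1 label and 0.844, 5.35 and 0.599 CPM with the sh4 label, against 2.54, 4.75 and 3.81 CPM in NC. The sh4 libraries of LDB3 disagreed with each other, and the change of -0.70 ± 0.66 became -2.35 (adjusted p 0.000433) without sh4 replicate 2.

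The smooth muscle genes did not rise as one group either. MYL9, the regulatory light chain of smooth and non-muscle myosin, had 53.1, 54.6 and 60.3 CPM with the sh1 label and 139, 113 and 149 CPM with the sh4 label, against 13.5, 19.7 and 18.6 CPM in NC. The groups did not overlap, and MYL9 rose by 1.70 ± 0.15 (adjusted p 2.44e-05) and by 2.95 ± 0.15 (adjusted p 5.38e-07). TAGLN, transgelin, had 18.3, 12.2 and 11.5 CPM with the sh1 label and 17.6, 28.3 and 24.6 CPM with the sh4 label, against 10.5, 8.80 and 12.0 CPM in NC. Only the sh4 change of TAGLN was called, at 1.17 ± 0.23 (adjusted p 0.00112), and it was 0.91 with library size alone. ACTA2, the smooth muscle alpha-actin, was 27.7 to 32.7 CPM with the sh1 label and 27.5 to 29.7 CPM with the sh4 label, against 16.3 to 19.2 CPM in NC, with log2 fold changes of 0.77 ± 0.10 and 0.70 ± 0.10 under the threshold.

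CNN1 and MYH11, both counted among late markers of smooth muscle, were not higher. CNN1, calponin, had 6.80, 6.98 and 7.62 CPM with the sh1 label and 11.4, 9.47 and 11.7 CPM with the sh4 label, against 17.1, 15.8 and 15.5 CPM in NC. The 3 groups did not overlap, and the change was -1.18 ± 0.13 with the sh1 label (adjusted p 7.6e-05) and -0.57 ± 0.12 with the sh4 label (adjusted p 0.00229, under the fold threshold). MYH11, the smooth muscle heavy chain, had 16, 9 and 15 counts with the sh1 label and 0, 4 and 9 counts with the sh4 label, against 23, 15 and 12 counts in NC. The sh4 change of MYH11 was -1.79 ± 0.70 (adjusted p 0.0432), and its adjusted p was 0.0543 to 0.137 without any 1 of the NC and sh1 libraries, without sh4 replicate 1 or sh4 replicate 2. Without sh4 replicate 3 it was -2.85 (adjusted p 0.013).

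Summed within a class, the levels were set by a few genes. The skeletal sum was 182 to 237 CPM with the sh1 label and 195 to 251 CPM with the sh4 label, against 112 to 130 CPM in NC. The cardiac sum was 26.4 to 29.9 CPM with the sh1 label and 89.1 to 117 CPM with the sh4 label, against 48.2 to 60.0 CPM in NC, and was the only class sum in which the sh1 libraries lay below NC. Smooth muscle genes summed to 102 to 112 CPM and 181 to 213 CPM, against 58.6 to 66.1 CPM in NC, and shared striated genes to 353 to 418 CPM and 707 to 777 CPM, against 175 to 214 CPM in NC. By class, the sh1 label had 3 calls higher and 2 lower among 10 skeletal genes, 1 and 4 among 10 cardiac, 1 and 0 among 5 shared striated and 1 and 1 among 5 smooth. The sh4 label had 3 and 2, 6 and 3, 2 and 0, and 2 and 1 in the same order of classes. Over all genes the shares were 12.1% and 7.92% with the sh1 label, and 20.0% and 15.5% with the sh4 label.

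The sh1 and sh4 labels were also compared with each other in the organoids. Of the 30 members, 1 was called higher with the sh1 label and 9 lower, where 7.83% of all genes tested were called higher and 11.2% lower. The median log2 fold change was -0.59, beside 0.03 over all genes, and with scaling by library size alone the fold changes of all genes had a median 0.231 higher. The 9 lower genes were SLN, MYL4, TNNT3, TNNC1, TNNT2, MYH7, MYL9, MYL3 and DES, of which 6 are cardiac genes. TNNT3 was at -1.96 ± 0.31 (adjusted p 0.00083), MYL4 at -2.37 ± 0.37 (adjusted p 0.000826) and TNNT2 at -1.58 ± 0.19 (adjusted p 0.000258). TNNC1 was at -1.70 ± 0.32 (adjusted p 0.00216) and MYL9 at -1.25 ± 0.14 (adjusted p 0.00018).

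The calls of DES, MYL3, MYH7 and IGFN1 between the labels were lost when certain single libraries were left out. DES at -1.02 ± 0.10 (adjusted p 0.000106) was -0.91 without sh1 replicate 2, -0.99 without sh4 replicate 3 and -0.79 with library size alone. These values are under the fold threshold, though all sh1 libraries of DES (50.0 to 65.8 CPM) lay below its sh4 libraries (111 to 126 CPM). MYL3 at -1.12 ± 0.30 was -0.91 without sh1 replicate 1, -0.96 without sh4 replicate 3 and -0.89 with library size alone. MYH7 at -1.27 ± 0.38 was -0.79 without sh4 replicate 3 (adjusted p 0.0813), -1.20 without sh1 replicate 2 (adjusted p 0.0665) and -1.27 without sh1 replicate 3 (adjusted p 0.0539). IGFN1 was the gene called higher with the sh1 label, at 1.75 ± 0.55 (adjusted p 0.0236). Its adjusted p was 0.0564 to 0.101 without sh1 replicate 1, sh1 replicate 2, sh4 replicate 1 or sh4 replicate 3. ACTC1 was at 1.00 ± 0.23, before rounding just under the threshold, and was called with 5 single libraries left out, at up to 1.22 without sh4 replicate 3. Among members not called, MYH11 at 1.45 ± 0.71 was 2.51 (adjusted p 0.034) without sh4 replicate 3, and LDB3 at 0.88 ± 0.65 was 2.54 (adjusted p 0.000693) without sh4 replicate 2. CKM at -1.11 ± 0.86 was -1.66 (adjusted p 0.0389) without sh4 replicate 1, MYL7 at -1.13 ± 0.51 had an adjusted p of 0.0456 without NC replicate 1, and TPM1 at -0.94 ± 0.12 was -1.02 without sh1 replicate 2.

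Ratios of related genes within a library compare levels per kilobase of exon and do not depend on scaling between libraries. They were chosen after the values were seen and are given without a test. TNNI1 over TNNI3, slow skeletal over cardiac inhibitory troponin, was 3.61, 4.17 and 3.01 with the sh1 label and 4.56, 4.08 and 4.11 with the sh4 label, against 0.461, 0.703 and 0.337 in NC. Per kilobase, the order of the 2 genes was thus turned round in every labelled library. This rests on exon lengths of 7524 bases for TNNI1 and 2034 bases for TNNI3. In CPM, TNNI1 was above TNNI3 in NC as well, at 13.9 to 22.6 CPM against 8.69 to 11.1 CPM. Fast over slow skeletal troponin T, TNNT3 over TNNT1, was 0.159, 0.0847 and 0.167 with the sh1 label and 0.409, 0.307 and 0.323 with the sh4 label, against 0.00366, 0.0173 and 0.00904 in NC, so TNNT1 remained the more abundant in all 9 libraries.

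Smooth over cardiac alpha-actin, ACTA2 over ACTC1, was 11.3, 9.39 and 13.7 with the sh1 label and 27.3, 23.7 and 16.2 with the sh4 label, against 1.09, 1.41 and 1.32 in NC. The 2 actins were near equal in NC libraries. For the regulatory light chains, MYL9 over MYL7 was 71.5, 42.8 and 51.7 with the sh1 label and 44.3, 47.2 and 98.7 with the sh4 label, against 3.41, 2.45 and 1.47 in NC. DES over ACTN2 was 21.3 to 40.2 and 51.7 to 74.6, against 3.57 to 5.93 in NC.

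**Figure D3:**
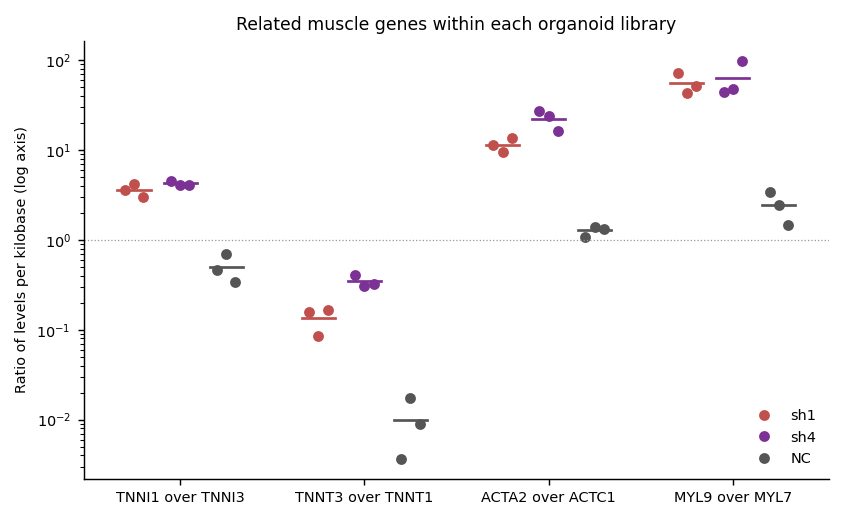
Ratio of levels per kilobase (log axis) for 4 pairs of related muscle genes in each organoid library. Points are libraries labelled sh1 (red), sh4 (purple) and NC (grey) from left to right, bars are group means, and the dotted line marks equal levels. In each pair shown every labelled library lies above every NC library, and TNNI1 over TNNI3 crosses 1. Of the pairs not shown, TPM1 over TPM2, MYH7 over MYH6 and MYL3 over MYL4 overlapped NC with either or both labels. The crossing depends on the exon lengths used.

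Per kilobase the most abundant members in sh4-labelled organoids were DES at 48.6 ± 3.1, MYL9 at 47.4 ± 6.6, TPM1 at 46.3 ± 2.6 and SLN at 39.1 ± 15 CPM per kilobase (SD, n = 3), which do not differ beyond their spread. With the sh1 label they were TPM2 at 25.6 ± 3.3, TPM1 at 24.1 ± 3.3, DES at 23.9 ± 3.3 and MYL9 at 19.8 ± 1.3. In NC organoids TPM2 at 13.9 ± 0.19, TPM1 at 12.6 ± 1.7 and TNNT1 at 10.9 ± 0.40 led, and DES was ninth at 4.58 ± 0.13.

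Promoters of members that moved together are shown because CArG boxes, the sites read by serum response factor in many muscle genes, were found in them. Only the exact form was counted, CC, then 6 letters of A or T, then GG. Near matches, such as gcttatatgg in TNNT2, were not counted or marked. Of the 39 members, 25 matched a RefSeq promoter (GRCh38.p14, 250 bases before to 50 after the start), and 4 of these, ACTA1, ACTC1, MYL7 and LDB3, held a CArG box (16%), against 351 of 27305 promoters (1.29%). The first 3 are among the 4 genes called lower with both labels in organoids, all of which matched a promoter. Of the 6 called higher with both labels only 2, TNNT2 and IGFN1, matched one, so the share with a box was not compared between directions. The 250 bases before each start follow, 5′ to 3′ on the minus strand, with the CArG box in capitals, for these 3 genes at chr1:229434095-229434344, chr15:34795550-34795799 and chr7:44141333-44141582, and for TNNT2, called higher with both labels, at chr1:201377681-201377930, where none was found.
ACTA1: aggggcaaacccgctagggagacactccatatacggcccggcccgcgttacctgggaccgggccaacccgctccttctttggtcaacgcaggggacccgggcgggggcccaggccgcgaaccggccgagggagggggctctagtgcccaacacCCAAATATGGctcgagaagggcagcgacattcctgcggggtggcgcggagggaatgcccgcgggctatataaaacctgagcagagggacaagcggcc
ACTC1: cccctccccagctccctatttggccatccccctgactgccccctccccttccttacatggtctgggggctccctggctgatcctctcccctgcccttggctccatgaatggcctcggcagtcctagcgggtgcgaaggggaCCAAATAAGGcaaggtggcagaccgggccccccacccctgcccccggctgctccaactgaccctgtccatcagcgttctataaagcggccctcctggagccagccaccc
MYL7: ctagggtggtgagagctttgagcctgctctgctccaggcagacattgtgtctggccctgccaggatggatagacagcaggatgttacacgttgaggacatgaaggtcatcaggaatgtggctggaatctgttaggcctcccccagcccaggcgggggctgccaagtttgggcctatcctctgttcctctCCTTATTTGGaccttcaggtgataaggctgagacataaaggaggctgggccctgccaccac
TNNT2: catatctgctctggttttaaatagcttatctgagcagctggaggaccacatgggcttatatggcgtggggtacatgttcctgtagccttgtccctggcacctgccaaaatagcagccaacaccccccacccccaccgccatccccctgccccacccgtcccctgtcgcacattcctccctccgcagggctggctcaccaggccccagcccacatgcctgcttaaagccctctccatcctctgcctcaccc

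The boxes begin at -97 in ACTA1, -109 in ACTC1 and -61 in MYL7 relative to the start. A MEF2 box was found in TTN alone (-167), against 0.593% of promoters, and CAGCTG, an E-box of the kind bound by myogenic factors, in 7 of 25 members (28%), against 17.7% of promoters. All 3 motifs read the same on both strands and do not overlap each other in these windows. A match is a description of the letters and not evidence of binding.

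SRF itself, the factor that binds CArG boxes, had 37.3 to 43.5 CPM with the sh1 label and 34.3 to 39.4 CPM with the sh4 label, against 50.1 to 50.8 CPM in NC. Of 15 genes listed as SRF partners and targets, 2 were called higher with the sh1 label, where 12.1% of all genes were, and 4 with the sh4 label, where 20.0% were, so the list lay near the background. None was called lower in edgeR or DESeq2, where 2 and 3 were lower at an unadjusted p under 0.05 in edgeR. TGFB1I1, a focal adhesion adaptor, rose by 1.75 ± 0.14 and 1.64 ± 0.14 on the log2 scale (adjusted p 1.19e-05 and 5.55e-06). FHL2, a LIM domain cofactor, rose by 1.07 ± 0.30 with each label (adjusted p 0.0146 and 0.00939). CSRP1 (1.63 ± 0.15, adjusted p 1.17e-05) and CCN2 (1.02 ± 0.17, adjusted p 0.00049) were called with the sh4 label, and were 0.74 ± 0.15 and 0.29 ± 0.17 with the sh1 label.

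Of the 6 genes called higher with both labels, 3 lie close together on chromosome 1, which was noticed after their values were seen. IGFN1 (201190825 to 201228952), TNNT2 (201359008 to 201377762) and TNNI1 (201403768 to 201429866) span 8 annotated genes, of which 5 were tested in organoids. TNNT2 and TNNI1 are 26006 bases apart. Between them LAD1 overlaps the TNNT2 locus and changed by 0.79 ± 0.34 with the sh1 label (adjusted p 0.0782) and 2.85 ± 0.33 with the sh4 label (adjusted p 4.2e-05). PKP1, also inside the span, was at -1.47 ± 0.55 (adjusted p 0.0522) and 0.86 ± 0.46 (adjusted p 0.123). TNNT1 and TNNI3, a similar pair 2413 bases apart on chromosome 19, were not called higher with either label.

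Muscle genes outside the set were also tested in organoids. Over all genes, 12.1% were called higher and 7.92% lower with the sh1 label, and 20.0% and 15.5% with the sh4 label. Of 13 other smooth muscle genes, 4 were called higher with the sh1 label and 7 with the sh4 label, with none lower in edgeR or DESeq2 and 1 lower at an unadjusted p under 0.05 with each label. SYNPO2, an actin-binding protein of smooth and striated muscle, had 33.5, 26.9 and 39.8 CPM with the sh1 label and 61.2, 44.3 and 64.1 CPM with the sh4 label, against 1.82, 1.23 and 0.528 CPM in NC, rising by 4.79 ± 0.31 and 5.55 ± 0.32. PGM5, an adherens junction protein, rose by 3.44 ± 0.24 and 2.49 ± 0.24 (adjusted p 7.15e-06 and 1.25e-05). SMTN, smoothelin, rose by 1.77 ± 0.13 and CALD1, caldesmon, by 1.12 ± 0.11 with the sh4 label, where with the sh1 label they were 0.89 ± 0.13 and 0.88 ± 0.11, under the fold threshold. ACTG2 rose by 3.59 ± 0.62 with the sh1 label and 3.46 ± 0.62 with the sh4 label, and LMOD1 by 1.67 ± 0.35 and 1.83 ± 0.35.

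Of 16 tested among 23 other cardiac genes, 5 were called higher and 4 lower with the sh1 label, and 7 and 3 with the sh4 label. Over all genes the shares were 12.1% and 7.92% with the sh1 label, and 20.0% and 15.5% with the sh4 label. TBX5, a transcription factor of heart and forelimb, had 17.4, 19.4 and 12.7 CPM with the sh1 label and 8.77, 6.94 and 12.0 CPM with the sh4 label, against 0.0552, 0.213 and 0.117 CPM in NC, where these are values of 1 to 4 counts. HAND2, a factor of heart, limb and neural crest, rose by 2.19 ± 0.18 and 2.52 ± 0.18 (adjusted p 1.73e-05 and 2.48e-06). HCN4, the pacemaker channel of the sinoatrial node, which is also used by neurons, fell, at -2.05 ± 0.18 and at -3.68 ± 0.20 (adjusted p 2.23e-05 and 6.21e-07). TECRL fell, at -1.93 ± 0.23 and at -1.60 ± 0.22. NKX2-5, a defining cardiac factor, did not exceed 0.471 CPM in any organoid library.

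Of 19 tested among 34 other skeletal genes, 2 were called higher and 5 lower with the sh1 label, and 3 and 8 with the sh4 label. Over all genes the shares were 12.1% and 7.92% with the sh1 label, and 20.0% and 15.5% with the sh4 label. CAPN3, the muscle calpain, rose by 2.24 ± 0.30 and 1.45 ± 0.30 (adjusted p 0.000264 and 0.00163), and JPH1, a junction protein of the skeletal triad, fell, at -2.07 ± 0.16 and at -1.53 ± 0.15 (adjusted p 9.82e-06 and 1.56e-05). MYBPC2, a fast fibre myosin-binding protein, fell, at -2.57 ± 0.42 with the sh1 label and at -1.18 ± 0.37 with the sh4 label. CASQ1, the skeletal calcium store protein, fell, at -2.73 ± 0.45 with the sh1 label, and was -0.55 ± 0.39, not called, with the sh4 label. PYGM, the muscle glycogen phosphorylase, was 0.82 ± 0.23 with the sh1 label, under the fold threshold, and rose by 1.51 ± 0.23 with the sh4 label. MYH4, a fast myosin heavy chain, had 0.823, 0.165 and 1.42 CPM with the sh1 label and 6.56, 2.59 and 2.34 CPM with the sh4 label, against 0 in all NC libraries. MYH1, another fast heavy chain, had 0 counts in all 9 libraries.

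In NPCs 19 of the 21 listed members passed the filter. With sh1, 3 of the 19 were called higher and 3 lower, against 6.31% and 12.1% of the 9860 genes tested. With sh4, 1 was called higher and 3 lower, against 6.55% and 11.6%. The median log2 fold change of the 19 was -0.40 with sh1 and 0.27 with sh4, beside 0.11 and 0.03 over all genes. An adjusted p under 0.05 was reached by 18 of 19 members with each hairpin, but so it was by 99.3% and 88.0% of all genes in this table, which lists a selected part of the genes, and CPM here are relative to the listed genes. With library size alone the fold changes of all genes had a median 0.137 lower with sh1 and 0.143 lower with sh4. The share of calls that were higher was then 23.7% with sh1 and 26.7% with sh4, against 34.3% and 36.2% with TMM.

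IGFN1 had the lowest fold change of the members in NPCs, and with sh1 the lowest of all genes tested. It had 4.29, 3.46, 4.14, 3.23 and 1.44 CPM with sh1 and 2.75, 1.14, 2.17, 1.53 and 1.51 CPM with sh4, against 237, 168, 240, 187 and 138 CPM with NC. The hairpin groups overlapped each other and did not come near NC. IGFN1 fell, at -5.89 ± 0.21 with sh1 (adjusted p 1.54e-14) and at -6.73 ± 0.22 with sh4 (adjusted p 3.18e-15) on the log2 scale. ACTA1 had 9.06, 7.90, 8.83, 8.55 and 7.14 CPM with sh1 and 10.9, 7.76, 9.36, 9.56 and 4.53 CPM with sh4, against 2.66, 3.40, 2.18, 2.82 and 2.61 CPM with NC. Every hairpin library was above every NC library, and ACTA1 rose by 1.59 ± 0.19 (adjusted p 2.52e-07) and by 1.61 ± 0.19 (adjusted p 1.82e-07).

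The other skeletal genes in NPCs changed by less. TPM2 was 173 to 195 CPM with sh1 and 188 to 221 CPM with sh4, against 258 to 296 CPM with NC, at -0.61 ± 0.05 and -0.44 ± 0.05. RYR1 was 6.65 to 9.52 CPM and 9.47 to 12.3 CPM, against 12.3 to 14.4 CPM with NC. NEB was 1.74 to 1.96 CPM and 1.67 to 2.47 CPM, against 2.66 to 3.37 CPM. MYH3 was 3.03 to 4.25 CPM and 3.29 to 3.91 CPM, against 1.27 to 2.77 CPM, and TNNT1 was 8.56 to 10.6 CPM and 7.26 to 10.1 CPM, against 5.46 to 8.09 CPM. The skeletal sum was 209 to 227 CPM with sh1 and 222 to 260 CPM with sh4, against 463 to 542 CPM with NC, most of the gap being IGFN1 and TPM2.

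**Figure D4:**
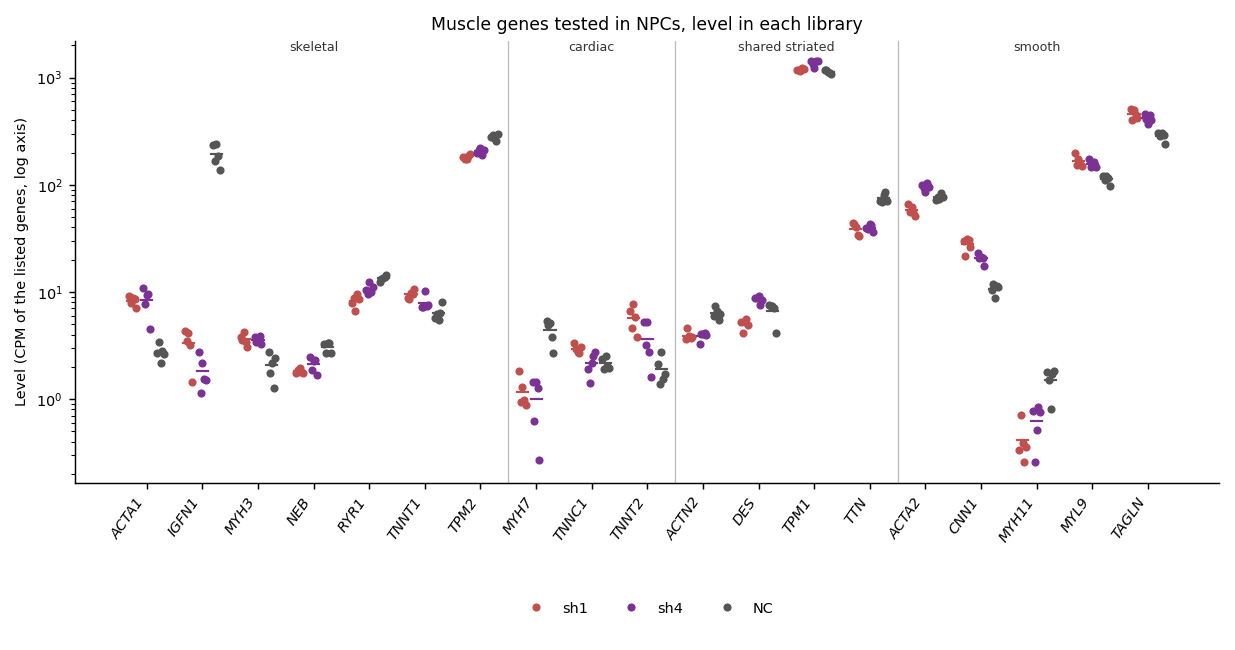
Level in CPM of the listed genes (log axis) of the 19 muscle genes tested in NPCs, by class. Each point is a library with sh1 (red), sh4 (purple) or NC (grey) from left to right, and bars are group means. IGFN1 is the gene with the widest gap, at 138 to 240 CPM with NC and under 5 CPM with either hairpin.

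Cardiac genes were low in NPCs. TNNT2 had 6.58, 4.56, 7.77, 5.84 and 3.80 CPM with sh1 and 5.28, 3.21, 5.22, 2.75 and 1.62 CPM with sh4, against 2.14, 1.39, 2.77, 1.55 and 1.72 CPM with NC. All sh1 libraries were above NC and the sh4 libraries overlapped NC. TNNT2 rose by 1.59 ± 0.28 with sh1 (adjusted p 3.31e-05), and the sh4 change of 0.94 ± 0.29 (adjusted p 0.00574) passed the fold threshold without NC replicate 3 (1.08), sh4 replicate 4 (1.03) or sh4 replicate 5 (1.13). MYH7 had 1.81, 0.933, 1.29, 0.973 and 0.873 CPM with sh1 and 1.43, 0.621, 1.45, 1.27 and 0.270 CPM with sh4, against 5.37, 4.89, 5.17, 3.76 and 2.71 CPM with NC. It fell, at -1.91 ± 0.28 (adjusted p 4.38e-06) and at -2.11 ± 0.29 (adjusted p 1.52e-06).

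The other 3 cardiac genes were not called in NPCs. TNNC1 was 2.71 to 3.35 CPM with sh1 and 1.40 to 2.75 CPM with sh4, against 1.91 to 2.55 CPM with NC. MYH6 had 2 to 5 counts with sh1 and 1 or 2 with sh4, against 4 to 22 with NC, and SLN had 1 or 2 and 0 to 2, against 4 to 8, both below the filter. As in the organoids, MYH6 and MYH7 counts were fractional with a whole sum, here in 9 of 15 libraries.

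Of the 4 shared striated genes, none was called in NPCs by edgeR or DESeq2, though in edgeR 3 had an unadjusted p under 0.05 with sh1 and 4 with sh4. TTN was 33.5 to 43.6 CPM with sh1 and 36.1 to 43.1 CPM with sh4, against 68.4 to 86.0 CPM with NC, at -0.95 ± 0.08 and -0.92 ± 0.08 (adjusted p 5.03e-09 and 6.85e-09), and passed the fold threshold with library size alone (-1.08 and -1.06). ACTN2 was 3.62 to 4.56 CPM and 3.24 to 4.12 CPM, against 5.47 to 7.31 CPM, at -0.70 ± 0.11 for each hairpin. TPM1 was 1162 to 1230 CPM and 1227 to 1435 CPM, against 1087 to 1180 CPM. DES was 4.12 to 5.53 CPM with sh1 and 7.60 to 9.15 CPM with sh4, against 4.12 to 7.51 CPM with NC.

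Smooth muscle genes in NPCs summed to 632 to 802 CPM with sh1 and 623 to 756 CPM with sh4, against 429 to 509 CPM with NC. CNN1 had 30.1, 21.7, 31.2, 30.4 and 26.2 CPM with sh1 and 23.2, 20.8, 21.4, 20.7 and 17.3 CPM with sh4, against 10.4, 11.8, 8.81, 11.3 and 11.2 CPM with NC. Every hairpin library was above NC, and CNN1 rose by 1.37 ± 0.11 with sh1 (adjusted p 7.22e-10), while the sh4 change of 0.94 ± 0.11 (adjusted p 1.42e-07) reached 1.00 without sh4 replicate 5. MYH11 had 5, 13, 7, 5 and 7 counts with sh1 and 14, 5, 10, 16 and 14 counts with sh4, against 34, 29, 11, 31 and 35 counts with NC. MYH11 fell, at -1.90 ± 0.30 (adjusted p 1.1e-05) and at -1.30 ± 0.28 (adjusted p 0.000242), and in 14 of 15 libraries its fractional count summed to a whole number with that of the overlapping gene NDE1.

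TAGLN was 402 to 509 CPM with sh1 and 366 to 461 CPM with sh4, against 242 to 305 CPM with NC, at 0.67 ± 0.08 and 0.54 ± 0.08. MYL9 was 149 to 196 CPM and 146 to 172 CPM, against 97.9 to 121 CPM, at 0.55 ± 0.08 and 0.47 ± 0.08. ACTA2 was 51.4 to 66.2 CPM with sh1 and 85.0 to 103 CPM with sh4, against 71.5 to 83.4 CPM with NC, so the 3 groups did not overlap and NC lay between the hairpins. Per kilobase, TAGLN led with sh1 at 116 ± 12, TPM1 and TAGLN were level with sh4 at 106 ± 6.9 and 106 ± 9.5, and TPM1 and TPM2 were level with NC at 88.3 ± 3.1 and 85.9 ± 4.5 CPM per kilobase (SD, n = 5). The ratio of TPM1 to TPM2 per kilobase was 1.55 to 1.71 with sh1 and 1.40 to 1.92 with sh4, against 0.928 to 1.09 with NC. The other pairs tried in NPCs, TNNT2 over TNNT1, MYH7 over MYH6 and DES over ACTN2, overlapped NC with either or both hairpins.

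Between sh1 and sh4 in NPCs no member was called by edgeR or by DESeq2, where 4.60% of all genes were called, 2.18% higher and 2.42% lower. In edgeR 10 of the 19 had an unadjusted p under 0.05 and 7 an adjusted p under 0.05 below the fold threshold. ACTA2 (-0.71 ± 0.07, adjusted p 7.77e-08) and DES (-0.77 ± 0.14, adjusted p 0.000211) were lower with sh1. IGFN1, at 0.84 ± 0.32 (adjusted p 0.0552), passed without sh1 replicate 5 (1.05) or without sh4 replicate 1 (1.03).

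Muscle genes outside the set were tested in NPCs as well. Of 10 other skeletal genes, 3 were called higher and 4 lower with sh1, and 4 and 4 with sh4. Over all NPC genes the shares were 6.31% and 12.1% with sh1, and 6.55% and 11.6% with sh4. ACTN3, the fast fibre alpha-actinin, had 3.44 to 4.03 CPM with sh1 and 4.71 to 7.39 CPM with sh4, against 0.103 to 1.02 CPM with NC, and rose by 3.27 ± 0.27 and 3.88 ± 0.26. MYOM3, an M-band protein, fell, at -1.51 ± 0.13 and at -1.57 ± 0.13, and CAPN3 at -1.51 ± 0.15 and at -1.34 ± 0.15. UNC45B, a myosin chaperone, rose by 2.36 ± 0.34 with sh1 and 2.51 ± 0.33 with sh4, and CACNA1S, the skeletal calcium channel, fell, at -1.05 ± 0.21 and at -2.44 ± 0.24.

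Of 7 other cardiac genes, 1 was called higher and 2 lower with each hairpin. Over all NPC genes the shares were 6.31% and 12.1% with sh1, and 6.55% and 11.6% with sh4. ANKRD1, a titin-binding stress-responsive protein, had 149 to 206 CPM with sh1 and 144 to 287 CPM with sh4, against 47.1 to 77.4 CPM with NC, rising by 1.51 ± 0.15 and 1.79 ± 0.15. TRDN, triadin, fell, at -1.99 ± 0.18 and at -2.53 ± 0.19. ISL1, a heart field and motor neuron factor, was -1.22 ± 0.17 with sh1 and -0.98 ± 0.16 with sh4, and RYR2, the cardiac calcium release channel, -0.84 ± 0.12 and -1.02 ± 0.12, each past the fold threshold with 1 hairpin. Of 10 other smooth muscle genes, 3 were called lower with each hairpin, and 1 higher with sh4. MYLK, the myosin light chain kinase, fell, at -1.07 ± 0.09 and at -1.30 ± 0.09, and LMOD1, an actin nucleator, at -1.16 ± 0.14 and at -1.95 ± 0.15. SYNPO2 was -1.89 ± 0.26 with sh1 and -0.82 ± 0.23 with sh4, MRVI1 (listed as IRAG1) -0.80 ± 0.07 and -1.06 ± 0.07, and ACTG2, the enteric smooth muscle actin, 0.50 ± 0.14 and 1.35 ± 0.13. All 6 had an adjusted p under 0.05, and for each gene the larger change was called. None of 9 SRF partners and targets was called by edgeR or DESeq2, though in edgeR 9 had an unadjusted p under 0.05 with sh1 and 8 with sh4.

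NPCs and organoids were then compared by a test of the difference itself, the mean change of sh1 and sh4 over NC in NPCs minus the same in organoids. It covered 21 members and 10034 genes, all of them listed in the selected NPC table. Of the members 13 were called, against 34.4% of these genes. Most genes tested in NPCs had an adjusted p under 0.05 in edgeR for each hairpin against NC, so this share describes a selected list. The contrast was positive for ACTA1 (4.42 ± 0.46), CNN1 (2.05 ± 0.15) and RYR1 (1.06 ± 0.18). It was negative for the other 10, led by IGFN1 (-9.15 ± 0.56), SLN (-3.56 ± 0.63), DES (-2.91 ± 0.17), MYH6 (-2.70 ± 0.61) and MYH7 (-2.42 ± 0.44). ACTA1 and IGFN1 were called in opposite directions in the 2 systems, with both the sh1 and the sh4 label. In organoids ACTA1 had 1 to 6 counts with the sh1 label and 0 to 5 with the sh4 label, against 18 to 27 in NC. The organoid call of IGFN1 with the sh4 label (adjusted p 0.0216 in edgeR) was lost without certain single libraries. In this fit ACTA1 was 1.61 in NPCs and -2.81 in organoids, and IGFN1 was -6.30 and 2.85. MYH6 and SLN had few counts in NPCs. The organoid mean of SLN describes neither label, as its change was -1.88 with the sh1 label and 4.16 with the sh4 label. The labels also differed for MYH7, at -0.22 and 1.05.

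**Figure D5:**
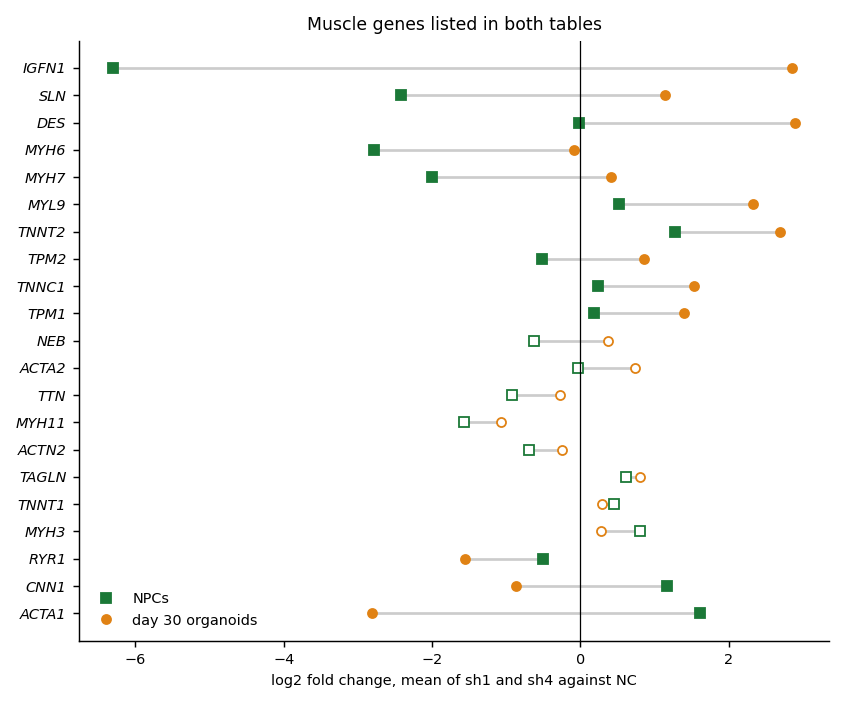
Log2 fold change over NC (x axis), as the mean of sh1 and sh4, for the 21 muscle genes in both tables, in NPCs (green squares) and day 30 organoids (orange circles). Filled symbols mark genes whose difference between the systems was called. IGFN1 and ACTA1 stand at the ends of the order, with changes of opposite sign in the 2 systems. In labelled organoids ACTA1 was near the limit of detection, and the IGFN1 call with the sh4 label was lost without certain single libraries.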

How the data were processed

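The authors deposited expected counts, unscaled, 1 table per system, made with STAR and featureCounts on GRCh38.p13 per the submitters' processing notes, versions not given in the sources used here. Of the values, 82.36% in NPCs and 91.04% in organoids were whole and the others had up to 2 decimals, and they were rounded before testing. Whether counting used strand was not given, so antisense and overlapping genes cannot be told apart. The NPC table holds part of the genes, selected in a way that was not given.

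The 3 groups of a system were fitted jointly in edgeR 4.0.16 (R 4.3.3), after filterByExpr (minimum count 10, leaving 19704 organoid and 9860 NPC genes) and TMM scaling, by the quasi-likelihood test with Benjamini-Hochberg adjustment over all genes tested. Calls needed an adjusted p under 0.05 and a log2 fold change of at least 1 in size, as in the design text of the series. CPM used the library totals times the TMM factors. The difference between systems was fitted over 6 groups. Exon lengths and positions are from GENCODE on GRCh38. DESeq2 1.42.0, other scalings, no filter, 2-group fits, a replicate block and leaving out each library were tried. The fit was tested on simulated data. By rule, members called in any comparison are given for every library, and up to 4 genes of each other list by smallest adjusted p. The members and lists were chosen with earlier results of these data known.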

Additional observations from a re-analysis of the deposited data

Results flagged for a closer look

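The change over NC differed between NPCs and organoids for 13 of the 21 genes in both tables, by the test of that difference in edgeR. The share over the 10034 genes tested was 34.4%, and these are all genes of the selected NPC table. The NPC change minus the organoid change was 4.42 for ACTA1, 2.05 for CNN1 and 1.06 for RYR1 on the log2 scale. It was -9.15 for IGFN1, -3.56 for SLN, -2.91 for DES, -2.7 for MYH6, -2.42 for MYH7 and -1.8 for MYL9. It was -1.41 for TNNT2, -1.37 for TPM2, -1.28 for TNNC1 and -1.22 for TPM1. The organoid change is a mean over the 2 labels, which for SLN had opposite signs (-1.88 with sh1 and 4.16 with sh4). KDM2A RNA was lower with the hairpins in NPCs and not in organoids, and the part of this in the differences was not tested.

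In 4 of 57 groups of 5 NPC libraries a single library stood far from the others, where chance gives about 1 in 20. ACTN2 in sh1 replicate 2 was the highest of its group at 4.56 CPM, and in sh4 replicate 1 the lowest at 3.24 CPM. TNNT1 in sh4 replicate 3 was the highest at 10.1 CPM, and DES in NC replicate 5 was the lowest at 4.12 CPM. None of these genes was called in NPCs, and none was called without the library concerned.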

How the results depend on the processing

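Over 168 single gene results and 2605 values under the alternatives, 2539 kept their direction and side of the threshold, 39 lost a call, 27 gained one and 0 reversed, while 55 uncalled values changed sign. Without a filter on low counts the NPC genes called lower were 5 with sh1 and 5 with sh4, against 3 each, more genes being tested. The count called higher with the sh1 label over the sh4 label in organoids was 2 with library size alone and 2 with the replicate block, against 1, and the cause was not tested. Of 1728 counts within single lists under the alternatives, 1613 stayed within 1.5 times. Leaving out 1 library at a time, the NPC members called higher and lower were 3 to 3 and 3 to 4 with sh1, 1 to 3 and 3 to 4 with sh4, and 0 to 1 and 0 to 0 between sh1 and sh4. In organoids they were 6 to 7 and 6 to 8 with the sh1 label, 10 to 13 and 5 to 6 with the sh4 label, and 0 to 2 and 6 to 10 between the labels. Library size alone moved the median fold change of all organoid genes by -0.274 with the sh4 label, and the share of calls that were higher was then 43.3%, against 56.4%, and 57.3%, against 41.2%, between the labels. The labels do not say that replicate numbers pair the samples. Same-numbered libraries deviated with correlations of -0.0995 to 0.393 in NPCs, where 9 of 15 pairs were over 0.1 and 12 of 30 best matches were with the own number, and -0.156 to 0.0352 in organoids, where 2 of 18 were. The replicate block changed 2 calls, losing MYH11 with the sh4 label (-1.84, adjusted p 0.0718) and gaining ACTC1 between the labels (1.00, adjusted p 0.0157) in organoids. The widest SE against NC in organoids, 0.59 to 0.79, were those of CKM, MYH11, ACTA1, LDB3, IGFN1 and MYH6.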
